A study of Mus musculus with 18 samples.

Results

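The 34 genes described here mark or regulate spermatogonia, the mitotic germ cells at the base of the seminiferous tubule, and were taken as the rows with their symbols in all 18 expression tables of mouse testis RNA, out of 58161 symbols in any table. They were placed in 4 classes by role: 10 genes of stem cells (Gfra1, Ret, Id4, Etv5, Nanos2, Bcl6b, Lhx1, Pou3f1, Eomes and Foxc2), 12 of undifferentiated progenitors (Zbtb16, Nanos3, Sall4, Lin28a, Neurog3, Sox3, Foxo1, Taf4b, Egr4, Uchl1, Upp1 and Tcf3), 6 of differentiating spermatogonia (Sohlh1, Sohlh2, Kit, Dmrt1, Dmrtb1 and Ccnd2) and 6 for surface proteins and others (Itga6, Thy1, Epcam, Cdh1, Tspan8 and Zglp1). The study measured poly(A) RNA of male C57BL/6J mice that were homozygous (Zfp541-/-, KO) or heterozygous (Zfp541+/-, Het) for a mutant allele of Zfp541, a zinc-finger gene of male germ cells. The 6 groups of 3 libraries were KO and Het testicular cells at postnatal day 14 (P14), KO and Het testicular cells at P18, and KO and Het spermatocytes at P18. The controls therefore carried 1 mutant copy, and no wild-type group was analysed here. The labels give neither how the allele was made nor how spermatocytes were isolated, and they do not say whether replicates were separate animals, so p-values measure the spread between these libraries, which may be technical.

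Spermatogonial stem cells renew under glial cell line-derived neurotrophic factor (GDNF) from Sertoli cells, which signals through the co-receptor GFRA1 and the kinase RET and keeps on transcription factors such as ETV5, BCL6B, LHX1 and POU3F1. ID4 holds back basic helix-loop-helix (bHLH) proteins by pairing with partners such as TCF3. Under retinoic acid, progenitors become KIT-positive differentiating spermatogonia with the bHLH factors SOHLH1 and SOHLH2, while DMRT1 and DMRTB1 act on the passage from mitosis to meiosis.

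Promoters are shown for 5 members on which the results turn: Id4 and Dmrtb1, which were lower in KO libraries, and Sohlh1, Sohlh2 and Kit, which were higher in KO spermatocytes. They are RefSeq sequences of build GRCm38.p6 from 250 bases before to 50 bases after the annotated start, written 5′ to 3′ on the gene's strand, with each E-box (CANNTG, the hexamer bound by bHLH dimers) in capitals. They lie at chr13:48260866-48261165 (plus strand) for Id4, chr4:107684181-107684480 (minus) for Dmrtb1, chr2:25847199-25847498 (minus) for Sohlh1, chr3:55181794-55182093 (plus) for Sohlh2 and chr5:75574737-75575036 (plus) for Kit.
Id4: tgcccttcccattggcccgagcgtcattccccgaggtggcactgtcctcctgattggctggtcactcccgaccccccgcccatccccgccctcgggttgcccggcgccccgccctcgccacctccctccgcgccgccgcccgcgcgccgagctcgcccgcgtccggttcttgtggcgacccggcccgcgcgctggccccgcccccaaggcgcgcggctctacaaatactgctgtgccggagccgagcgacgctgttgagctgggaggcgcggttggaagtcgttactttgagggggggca
Dmrtb1: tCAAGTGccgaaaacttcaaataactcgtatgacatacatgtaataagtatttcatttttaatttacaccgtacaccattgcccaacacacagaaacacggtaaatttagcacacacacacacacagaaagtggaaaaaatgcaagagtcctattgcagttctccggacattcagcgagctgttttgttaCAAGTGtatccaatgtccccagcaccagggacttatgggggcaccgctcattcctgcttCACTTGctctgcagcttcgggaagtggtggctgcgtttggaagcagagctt
Sohlh1: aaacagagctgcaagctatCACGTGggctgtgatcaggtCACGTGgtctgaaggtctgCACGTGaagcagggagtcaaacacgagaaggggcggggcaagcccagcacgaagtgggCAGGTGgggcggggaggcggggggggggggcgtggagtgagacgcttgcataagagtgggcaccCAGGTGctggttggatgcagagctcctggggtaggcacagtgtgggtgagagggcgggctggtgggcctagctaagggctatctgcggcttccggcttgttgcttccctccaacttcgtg
Sohlh2: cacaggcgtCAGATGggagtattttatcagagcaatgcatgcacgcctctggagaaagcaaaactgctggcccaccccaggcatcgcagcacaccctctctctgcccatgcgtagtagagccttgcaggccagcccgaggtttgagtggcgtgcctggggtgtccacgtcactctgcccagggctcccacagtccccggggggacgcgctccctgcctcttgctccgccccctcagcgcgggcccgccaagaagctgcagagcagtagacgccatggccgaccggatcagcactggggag
Kit: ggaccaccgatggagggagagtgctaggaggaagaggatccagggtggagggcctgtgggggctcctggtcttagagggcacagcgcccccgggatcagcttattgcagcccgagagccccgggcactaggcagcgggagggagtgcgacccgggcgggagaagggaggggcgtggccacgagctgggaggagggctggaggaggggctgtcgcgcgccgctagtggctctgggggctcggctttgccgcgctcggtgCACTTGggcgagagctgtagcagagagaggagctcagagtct
The Id4 window held no E-box and 5 GC boxes (GGGCGG), the Dmrtb1 window 3 E-boxes, that of Sohlh1 5, and those of Sohlh2 and Kit 1 each. Of the 21 members with a promoter in the RefSeq table, 14 held CANNTG, which 72.3% of 32851 promoters of this length hold, and 5 held its subset CAGCTG (16.3% of promoters). GGGCGG was found in 12 of 21 (35.7% of promoters) and the DMRT1 core ACAATGT in none (3.0% of promoters), with both strands searched. These matches describe the letters of the windows and carry no statement on binding.

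Levels below are deposited values rescaled to a common size across the 18 libraries, in FPKM (fragments scaled to gene length and to sequencing depth) for P18 testis and in RPKM (the same with reads) for the other 2 sets. Total reads, read back from the steps of the values, were 9.26 to 21.1 M (megareads) per library, so that 1 read on a gene of 1 kb was worth 0.0473 to 0.108. Zfp541 was lower in the KO libraries of each set, at 12.1 to 13.6 in KO against 29.5 to 57.2 in Het for spermatocytes, at 8.34 to 10.2 in KO against 19.6 to 28.0 in Het for P18 testis, and at 3.49 to 5.51 in KO against 8.24 to 10.1 in Het for P14 testis. Its difference passed the test in both P18 sets (adjusted p = 0.00264 and 0.00536) and not at P14 (adjusted p = 0.0796). Which part of the gene the allele lacks is not given, so reads outside that part check nothing. In the Het libraries 12 of 12 Sertoli cell markers were lower in spermatocytes than in testis, with a median log2 difference of −3.64, but their sum was not 0 in spermatocytes (50.5 to 97.4 in KO and 64.0 to 101.5 in Het). In the same libraries 3 of 4 erythroid markers in Het and 2 of 4 in KO were listed at 0, and the sum of 8 markers of pachytene spermatocytes was 156.4 to 214.7 in KO spermatocytes, against 1096 to 2538 in Het spermatocytes. The third Het spermatocyte library stood apart, with the highest pachytene sum (2538), Id4 and Dmrtb1 and the lowest geometric mean of progenitor genes (10.9), so values without it are given beside some of the results it touches.

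Of the 34 members, 27 had a mean level of at least 1 over the 18 libraries. Uchl1, the ubiquitin hydrolase known as PGP9.5, was the most abundant member with a mean of 112, ahead of Dmrt1 (71.8), Dmrtb1 (47.8), the E-protein gene Tcf3 (31.9) and Sohlh2 (29.2), all per length. Dmrtb1 varied most among these, from 15.7 in a KO library of P18 testis to 169 in a Het library of spermatocytes. The GDNF receptor genes were far lower, with Gfra1 at 0.852 to 3.10 and Ret at 0.926 to 5.66 over all libraries, as were Bcl6b at 0.547 to 1.498 and the forkhead gene Foxc2 at 0.558 to 1.48. Nanos2 (an RNA-binding protein of stem cells), Lhx1, Eomes (a T-box factor) and Cdh1 (E-cadherin) stayed under 1 in every library, and Nanos2 rested on 2 to 13 reads. No strand setting is given, so reads of an antisense gene cannot be told apart from those of Nanos2 over 49.0% of its exon bases (Gm45058) or of Uchl1 over 18.1% (Uchl1os). The means of Neurog3 (0.988), Tspan8 (0.946) and Thy1 (0.555) also lay under 1. For Id4, Neurog3, Epcam and Tspan8 at P14 and for Itga6 at P18 the values did not give whole reads with the annotated length, so these 5 genes were left out of comparisons between ages. The heat map of all members shows the differences within each gene.

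**Figure D1:**
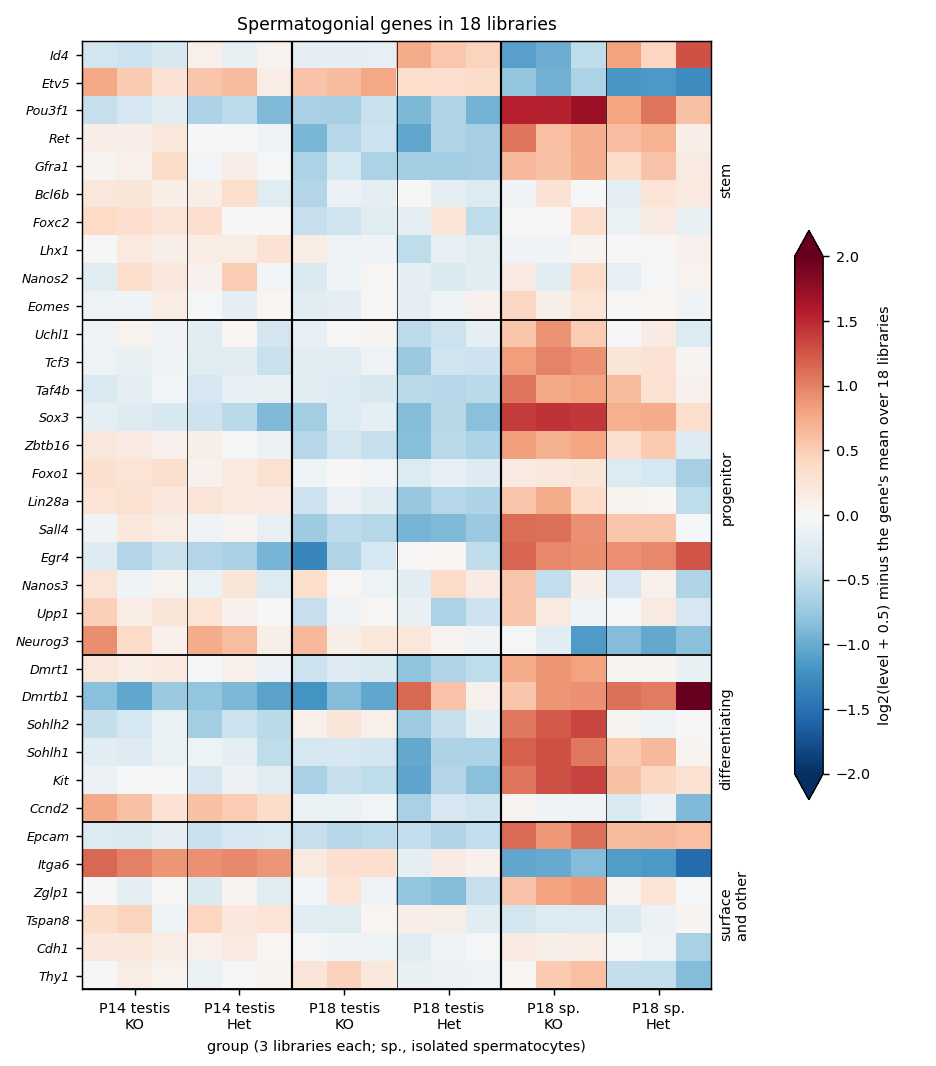
Level of each of the 34 members in each of the 18 libraries, as log2(level + 0.5) minus the gene's own mean over the libraries, with rows grouped by class and columns by group (KO left of Het). Most progenitor and differentiating rows are highest in the KO spermatocyte columns, while Id4 and Dmrtb1 are highest in the third Het spermatocyte column (28.0 and 169); the level of Id4 at P14 rests on another gene length than at P18.

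In P14 testis no member passed the test between KO and Het, and most members lay slightly higher in KO. Of 29 members tested with limma, 0 passed an adjusted p under 0.05 (Benjamini-Hochberg over all genes tested), where 0.011% of 18104 genes passed as higher and 0.166% as lower. At an unadjusted p under 0.05 there were 6 higher and 1 lower members, where 708 of 18104 genes were higher and 988 lower. Limma-voom on the reads read back also called 0. Signs leaned upward, with 26 of 29 tested members positive and a median log2 difference of 0.13, against 0.02 over all genes tested (0.11 over all 34 members without a filter). The markers of Sertoli cells leaned the same way: 11 of 12 were positive, 0 passed with limma and 5 were higher at an unadjusted p under 0.05, the median was 0.13, and their summed level was 1936 to 2112 in KO against 1742 to 1917 in Het. Of 6 pachytene markers tested at P14, 1 fell (Piwil1, −2.33 ± 0.23 SE, adjusted p = 0.0381) and 5 were negative, with a median of −1.14 and sums of 53.8 to 79.7 in KO against 112.1 to 150.5 in Het. Spag6l, a pachytene marker tested here, was under 1 in every KO library and passed the filter only through Het libraries. The part of neither list in the members' lean or in the lower Id4 values was tested. In such bulk samples, more cells of a type and more RNA per cell cannot be told apart.

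Id4, whose product inhibits bHLH factors and marks cells with the highest stem activity, was the member with the smallest unadjusted p at P14. Its level was 8.62, 8.21 and 8.87 RPKM in the KO libraries, against 12.2, 10.1 and 11.8 RPKM in the Het libraries. Every KO library lay under every Het library, but the log2 difference of −0.39 ± 0.08 (SE, adjusted p = 0.146) missed the threshold. Groups did not overlap for 7 members that were higher in KO and for Id4, against 9.1% and 7.47% of all genes. Dmrt1, a DM-domain factor that restrains entry into meiosis in spermatogonia and is also made by Sertoli cells, was among the 7, at 79.4, 75.4 and 77.95 RPKM in KO and 67.3, 73.4 and 62.9 RPKM in Het, a log2 difference of 0.20 ± 0.07 (SE, adjusted p = 0.423). Uchl1 overlapped between the groups, with 104, 114 and 103 RPKM in KO, 92.8, 111 and 83.96 RPKM in Het and a log2 difference of 0.17 ± 0.11 (SE, adjusted p = 0.660).

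In P18 testis, Id4 and Dmrtb1 fell in KO while 6 other members rose by 0.28 to 0.75 on the log2 scale. Of 25 members tested, 6 were higher and 2 lower, where 5.42% of 18313 genes passed as higher and 17.8% as lower. The median log2 difference of the tested members was 0.26, against 0.01 over all genes tested, and 0.24 over all 34 without a filter. The count of 8 called members was 14 on values as deposited, with median-of-ratios scaling and with limma-voom on the reads read back, and 4 without a filter. The median of all genes was 0.12 on values as deposited, 0.11 with median-of-ratios scaling and 0.01 with limma-voom. Shares of all genes called under these alternatives are not given here, so the counts are not set against all genes. Groups did not overlap for 13 higher and 2 lower members, against 21.1% and 27.2% of all genes.

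Dmrtb1 (chr4:107676290-107684230), which encodes the DM-domain factor DMRT6, moved most. It was at 15.7, 19.7 and 17.5 FPKM in the KO libraries, from 497 to 786 reads, against 81.3, 54.5 and 38.8 FPKM in the Het libraries, from 1435 to 2648 reads. The KO libraries lay close together and far under the lowest Het library, while the Het libraries spread widely, and the log2 difference was −1.64 ± 0.26 (SE, adjusted p = 0.0103). The Het library with the highest Dmrtb1 also had the highest pachytene marker sum (1217) and that with the lowest Dmrtb1 the lowest (548.8), and all 8 pachytene markers fell in KO testis (sums of 153.7 to 169.6 in KO against 548.8 to 1217 in Het, median log2 difference −2.83). Ccna1 and Adam3 were under 1 in every KO testis library and passed the filter only through Het libraries, which set their direction. The part of the pachytene markers in the Dmrtb1 result was not tested. Id4 (chr13:48261228-48266026) was at 9.74, 9.86 and 10.01 FPKM in KO and 19.1, 16.7 and 15.5 FPKM in Het. The KO values were almost equal and the groups did not overlap, with a log2 difference of −0.76 ± 0.09 (SE, adjusted p = 0.00511). In the Het libraries Id4 followed the order of the pachytene sums (1217, 810.5 and 548.8), while in the KO libraries the orders differed. The part of the pachytene markers in the Id4 result was not tested either. The call for Id4 held under every alternative tried, and that for Dmrtb1 ended without the second Het library (adjusted p = 0.0521), where Id4 was the only member left.

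The members that rose in P18 testis came from each class. Sohlh2, a bHLH factor needed for spermatogonial differentiation, was at 28.3, 31.2 and 28.3 FPKM in KO and 15.7, 19 and 23.1 FPKM in Het, a log2 difference of 0.61 ± 0.14 (SE, adjusted p = 0.0281). Zglp1, a GATA-like zinc-finger gene of germ cells, was at 4.28, 5.47 and 4.22 FPKM in KO and 2.41, 2.22 and 3.10 FPKM in Het (0.75 ± 0.15 SE, adjusted p = 0.0196). The value of Zglp1 is uncertain, because 92.2% of its exon bases lie in exons of the gene Gm49373 on the same strand. Lin28a, an RNA-binding protein that blocks let-7 maturation, was at 7.26, 9.09 and 8.37 FPKM in KO and 5.60, 6.50 and 6.25 FPKM in Het (0.40 ± 0.10 SE, adjusted p = 0.0371). Ccnd2, the cyclin D2 gene, was at 8.83, 8.86 and 9.28 FPKM in KO and 6.01, 7.63 and 7.28 FPKM in Het (0.35 ± 0.10 SE, adjusted p = 0.0455). In all 4 the lowest KO library exceeded the highest Het library.

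Etv5, an ETS factor of stem cells that Sertoli cells also make, was at 8.69, 9.09 and 10.1 FPKM in KO and 7.38, 7.33 and 7.49 FPKM in Het, a log2 difference of 0.31 ± 0.07 (SE, adjusted p = 0.0297). Of the 50-base stretches of Etv5 exons, 24.5% also occur elsewhere among annotated genes (most in Gm4798), so its value is uncertain. Taf4b, a germ-cell subunit of the general factor TFIID, was at 19.8, 19.1 and 18.5 FPKM in KO and 15.8, 15.4 and 15.8 FPKM in Het (0.28 ± 0.05 SE, adjusted p = 0.0162). Among Sertoli markers 4 of 12 rose (Dhh, Inha, Aard and Ctsl), and all 12 were positive with a median of 0.26. Their sum was 1722 to 1764 in KO against 1309 to 1576 in Het. Of 5 macrophage markers tested 2 rose (sums of 40.2 to 47.8 in KO and 28.9 to 34.9 in Het). Of 7 Leydig markers 1 rose (median 0.33, sums of 184.7 to 238.7 in KO and 166.3 to 189.4 in Het), and of 8 early meiotic markers 3 rose and 1 fell (median 0.27, sums of 586.8 to 680.2 in KO and 661.7 to 726.7 in Het). The part of these 4 lists in the 6 rises was not tested. Uchl1 and Dmrt1 did not pass, with log2 differences of 0.35 ± 0.11 (SE, adjusted p = 0.0646) and 0.31 ± 0.09 (SE, adjusted p = 0.0566). They were called as higher under 6 and 7 of 17 alternatives, with adjusted p down to 0.0175 for Uchl1 and 0.0199 for Dmrt1. Uchl1 was at 97.1, 108 and 113 FPKM in KO and 75.1, 80.2 and 96.1 FPKM in Het. Dmrt1 was at 50.2, 56.7 and 55.5 FPKM in KO and 38.9, 44.5 and 47.8 FPKM in Het, again without overlap. Each of the 6 rises ended under at least 1 fit without a single library, and the count of called members was 1 without the second Het library, 2 without the second or without the third KO library, 3 without the first KO library, 5 without the first Het library and 9 without the third Het library.

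**Figure D2:**
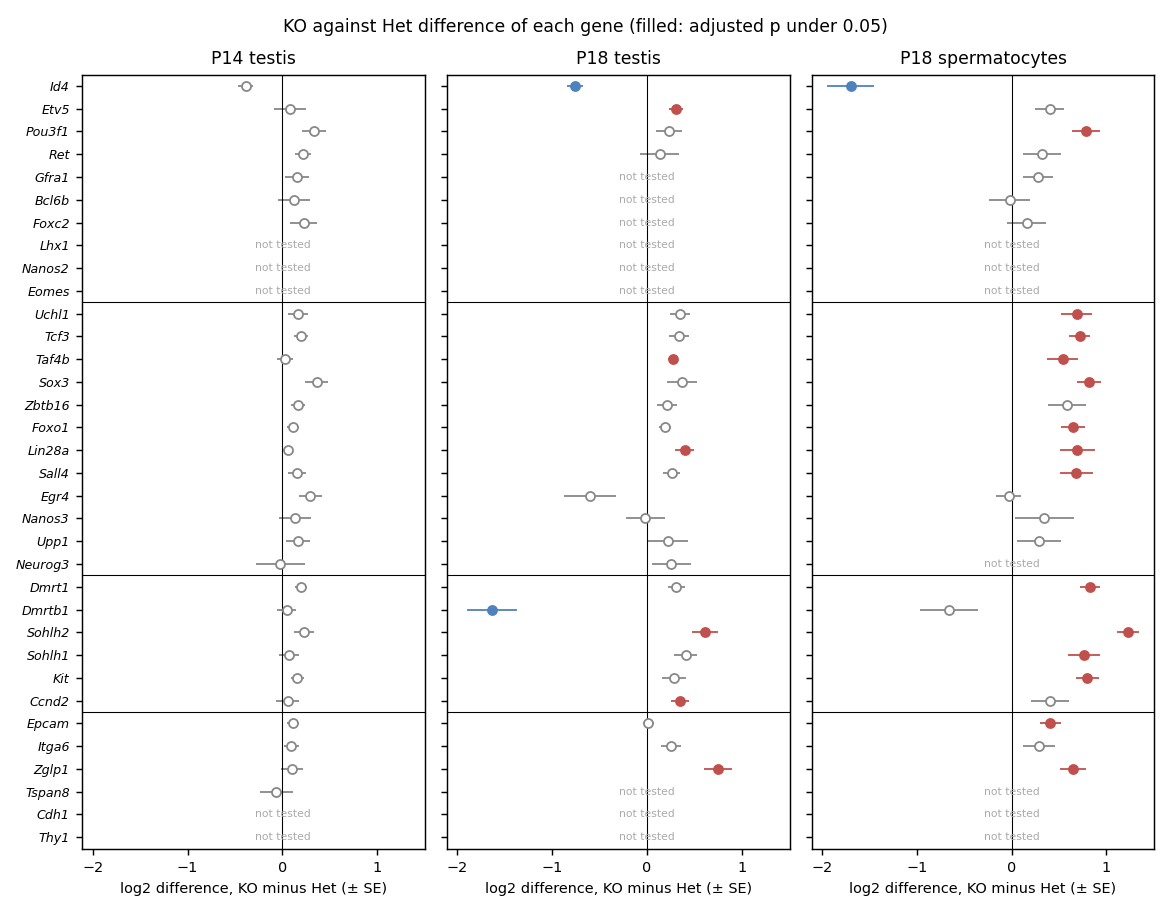
Log2 difference of KO minus Het (± SE) for each tested member in P14 testis, P18 testis and P18 spermatocytes, with members in rows grouped by class. Filled red points are higher and filled blue points lower at an adjusted p under 0.05; 15 points are filled in spermatocytes, 8 in P18 testis and 0 at P14, and in spermatocytes Id4 at −1.70 and Sohlh2 at 1.23 mark the ends.

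In P18 spermatocytes, 14 of 27 tested members rose in KO and Id4 fell, with the differentiation genes Sohlh2, Dmrt1, Kit and Sohlh1 among those that rose. Among all 15863 genes tested 16.3% passed as higher and 19.5% as lower. The median log2 difference of the tested members was 0.54, against 0.07 over all genes tested, and 0.41 over all 34 without a filter, where the median of all genes was 0.04. Groups did not overlap for 19 higher and 2 lower members, against 29% and 24.9% of all genes. With scaling factors taken from these 6 libraries alone, an alternative chosen after seeing the data, 11 members were called in place of 15, and Sall4, Lin28a, Taf4b and Epcam lost their calls (adjusted p = 0.0688 to 0.119). With the replicate number as a block the count was 16, with Zbtb16 added.

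Id4 was the only member that fell in spermatocytes. It was at 5.03, 5.40 and 7.76 RPKM in the KO libraries, from 236 to 415 reads, against 20.1, 15.3 and 27.97 RPKM in the Het libraries, from 598 to 1680 reads. Every KO library lay under every Het library, and the log2 difference was −1.70 ± 0.25 (SE, adjusted p = 0.00305). Without the third Het library, which held the highest Id4, it was −1.48 ± 0.21 (adjusted p = 0.00307). Dmrtb1 was at 53.9, 68.2 and 69.1 RPKM in KO and 79.1, 75.9 and 169 RPKM in Het, so the groups did not overlap, but the log2 difference of −0.66 ± 0.31 (SE, adjusted p = 0.133) was not called and was −0.29 ± 0.13 without the third Het library (adjusted p = 0.143). All 8 pachytene markers fell in KO spermatocytes with a median of −3.59. Of these, Ccna1, Pou5f2 and Adam3 were under 1 in every KO library and passed the filter only through Het libraries. The filter thus set their direction. The sums of the pachytene markers in the Het libraries (1374, 1096 and 2538) followed the order of Id4, and their part in the Id4 result was not tested. The other stem gene called was Pou3f1, a POU-domain factor under GDNF signalling. It was at 12.4, 12.3 and 13.9 RPKM in KO and 7.09, 8.71 and 6.09 RPKM in Het, a rise of 0.79 ± 0.15 (SE, adjusted p = 0.00713) with every KO library above every Het library. Gfra1, Ret, Etv5, Bcl6b and Foxc2 had differences of −0.02 to 0.40, with none called.

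Of 11 tested progenitor genes 7 rose. Tcf3, the E-protein partner of tissue-specific bHLH factors and a target of ID proteins, was at 53.97, 59.95 and 57.3 RPKM in KO and 35.5, 36.9 and 31.2 RPKM in Het, a log2 difference of 0.72 ± 0.11 (SE, adjusted p = 0.00358). Sox3, an X-linked HMG-box factor of progenitors, was at 48.4, 49.9 and 49.1 RPKM in KO and 29.9, 30.5 and 23.3 RPKM in Het (0.82 ± 0.13 SE, adjusted p = 0.00400). Foxo1, the forkhead factor of undifferentiated spermatogonia, was at 11.6, 11.95 and 12.2 RPKM in KO and 8.32, 7.89 and 6.27 RPKM in Het (0.65 ± 0.13 SE, adjusted p = 0.00930). For these 3 the KO libraries stood clear of the Het libraries, and the calls held under every alternative tried. Uchl1 was at 160.1, 202 and 154 RPKM in KO and 109, 122 and 89.6 RPKM in Het (0.68 ± 0.16 SE, adjusted p = 0.0162). Sall4, a zinc-finger factor of undifferentiated cells, was at 20.5, 20.1 and 17.7 RPKM in KO and 13.7, 13.6 and 9.05 RPKM in Het (0.68 ± 0.18 SE, adjusted p = 0.0227). Lin28a was at 14.7, 16.9 and 12.95 RPKM in KO and 10.4, 10.1 and 6.78 RPKM in Het (0.69 ± 0.19 SE, adjusted p = 0.0264). In each of these 3 genes the third Het library was the lowest, and the groups did not overlap. Without that library the differences were 0.56 for Uchl1, 0.49 for Sall4 and 0.51 for Lin28a (adjusted p = 0.022, 0.0162 and 0.0261). Taf4b was at 48.95, 39.4 and 40.7 RPKM in KO and 35.99, 28.6 and 24.6 RPKM in Het (0.54 ± 0.17 SE, adjusted p = 0.0408), and its call ended without the third Het library (adjusted p = 0.0714).

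Zbtb16 (PLZF), the zinc-finger repressor used as a marker of all undifferentiated spermatogonia, had a difference of 0.58 that just missed the threshold (adjusted p = 0.0575, and 0.0461 with the replicate block). Without the third Het library it was 0.36 ± 0.11 (adjusted p = 0.0524). Egr4 (−0.03), Upp1 (0.29) and Nanos3 (0.34) were not called, and Neurog3 was under the filter on low values.

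Of the 6 differentiating genes 4 rose. Sohlh2 (chr3:55182028-55209957) was at 55.02, 62.7 and 67.5 RPKM in KO, from 1639 to 2215 reads, against 27.3, 24.6 and 26.3 RPKM in Het, from 591 to 969 reads. The lowest KO library exceeded the highest Het library by a wide margin, and its log2 difference of 1.23 ± 0.12 (SE, adjusted p = 0.000539) was the highest of the tested members. Dmrt1 was at 115, 126 and 119 RPKM in KO and 70.9, 70.4 and 61.4 RPKM in Het, a difference of 0.82 ± 0.11 (SE, adjusted p = 0.00183). Kit, the receptor for Kit ligand that defines differentiating spermatogonia, was at 28.1, 32.4 and 34.2 RPKM in KO and 19.9, 17.6 and 16.4 RPKM in Het (0.80 ± 0.13 SE, adjusted p = 0.00379). Sohlh1, the bHLH partner of SOHLH2, was at 43.7, 46.4 and 39.5 RPKM in KO and 27.2, 29.7 and 19.6 RPKM in Het (0.77 ± 0.17 SE, adjusted p = 0.013). All 4 rose without overlap; the calls of Sohlh2, Dmrt1 and Kit held under every alternative tried, and that of Sohlh1 ended without the second KO library (adjusted p = 0.0565). Ccnd2 was not called (0.40, adjusted p = 0.157), and its difference was 0.18 without the third Het library (adjusted p = 0.292).

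Among surface and other genes, Epcam, an epithelial adhesion protein of spermatogonia, was at 48.1, 39.7 and 46.6 RPKM in KO and 33.7, 33.96 and 33.1 RPKM in Het, a log2 difference of 0.41 ± 0.11 (SE, adjusted p = 0.0280). Zglp1, uncertain for its overlap with Gm49373, was at 6.86, 8.18 and 8.54 RPKM in KO and 4.66, 5.51 and 4.36 RPKM in Het (0.65 ± 0.14 SE, adjusted p = 0.0126). Both rose without overlap between the groups. Itga6, the laminin receptor subunit, had 0.29 (adjusted p = 0.211), and Thy1, Cdh1 and Tspan8 were under the filter. In these libraries 0 of 11 Sertoli markers tested with limma were called and 9 were negative. At an unadjusted p under 0.05 there was 1 higher Sertoli marker, where 3766 of 15863 genes were higher. Of 8 markers of early meiotic cells 2 rose and all 8 were positive (sums of 1017 to 1158 in KO and 836.6 to 1072 in Het). Of 3 macrophage markers tested 2 rose (sums of 8.59 to 10.2 in KO and 3.01 to 7.39 in Het). For neither list was its part in the 14 rises tested. Without the second KO library 9 of the 15 members were called.

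**Figure D3:**
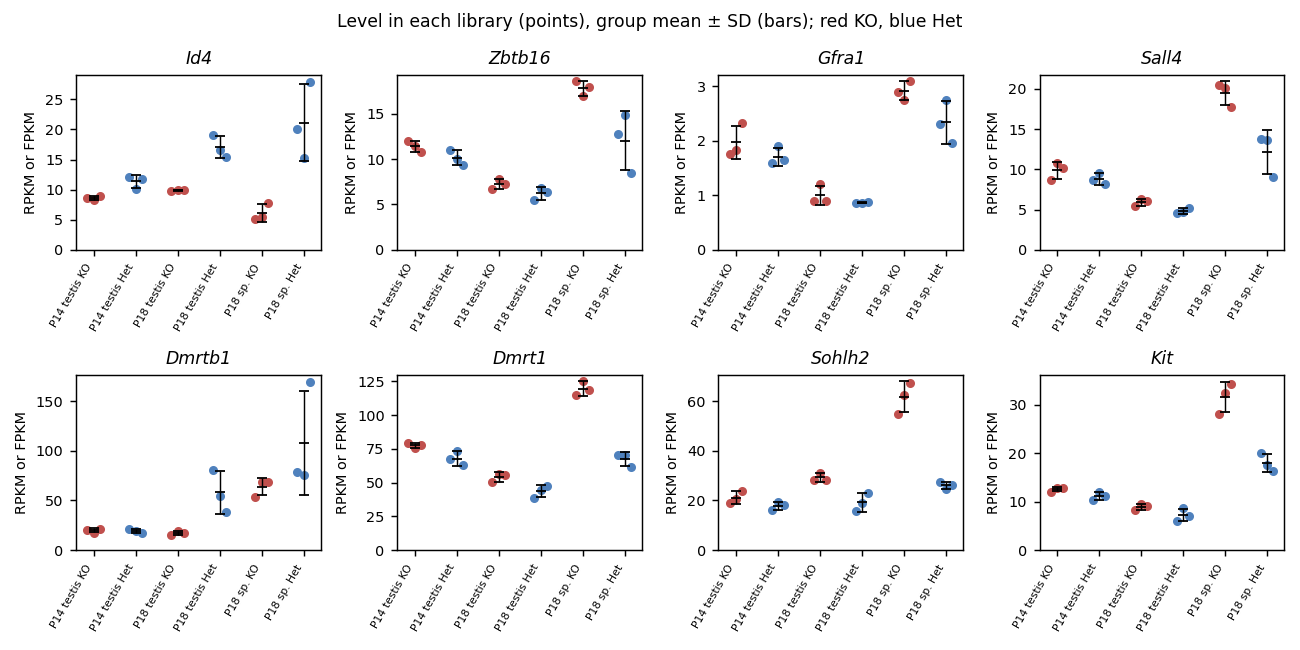
Level by library (points) with mean ± SD (n = 3) of Id4, Zbtb16, Gfra1, Sall4, Dmrtb1, Dmrt1, Sohlh2 and Kit in the 6 groups, in RPKM or FPKM after rescaling, KO left of Het in each set. Sohlh2, Dmrt1 and Kit are highest in KO spermatocytes, Id4 is lower in KO in each set, and Dmrtb1 in P18 testis is at 15.7 to 19.7 in KO against 38.8 to 81.3 in Het.

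Stem genes were set against differentiating genes within each library as the log2 ratio of the geometric means of the 7 stem and 6 differentiating genes with a mean of at least 1. In P14 testis this ratio was −2.79, −2.77 and −2.81 in KO and −2.72, −2.79 and −2.85 in Het, so the groups overlapped. In P18 testis it was −3.07, −3.00 and −2.88 in KO and −2.79, −2.84 and −2.99 in Het, again with overlap. In spermatocytes it was −3.60, −3.78 and −3.55 in KO and −3.19, −3.02 and −3.12 in Het, where every KO library lay under every Het library. The geometric mean of the differentiating genes was 40.4 to 44.4 RPKM in KO and 27.9 to 29.6 RPKM in Het spermatocytes, while that of the stem genes was 3.24 to 3.74 in KO and 3.20 to 3.62 in Het. Without Id4, an alternative chosen after seeing the data, the geometric mean of the other 6 stem genes was 2.97 to 3.30 in KO and 2.14 to 2.79 in Het spermatocytes. The ratio was then −3.70, −3.90 and −3.73 in KO and −3.68, −3.39 and −3.71 in Het spermatocytes, with overlap between the groups. Dmrtb1 stayed among the differentiating genes, with log2 differences of −1.64 in P18 testis (called) and −0.66 in spermatocytes (not called). Its lower KO values reduce the differentiating mean in KO, and the ratio without Dmrtb1 was not computed. Dmrtb1 was at 53.9 to 69.1 RPKM in KO and 75.9 to 169 RPKM in Het spermatocytes. The overlap without Id4 therefore does not show that the difference in the ratio rests on Id4 alone. The median log2 difference in spermatocytes was 0.28 over 7 tested stem genes, 0.65 over 11 progenitor genes, 0.78 over 6 differentiating genes and 0.41 over 3 surface and other genes. Without the third Het library these medians were 0.15 for stem, 0.49 for progenitor, 0.66 for differentiating and 0.40 for surface and other genes. In P18 testis the median was 0.18 over only 4 tested stem genes and 0.26 over 12 progenitor genes. It was 0.33 over 6 differentiating and 0.26 over 3 surface and other genes. Without a filter the medians there were 0.12 over 10 stem and 0.15 over 6 surface and other genes. At P14 the 4 medians lay between 0.10 and 0.16, over 7 stem, 12 progenitor, 6 differentiating and 4 surface and other genes. The medians thus do not rest on the same genes in each set. In spermatocytes the stem genes Bcl6b (0.870 to 1.42) and Foxc2 (0.870 to 1.40) were low. Adding 0.5 before the logarithm shrinks the differences of such genes more than those of abundant genes. These are descriptions with no test, since the members were chosen with results known.

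Whether the effect of KO differed between spermatocytes and testis at P18 was tested in a fit of 12 libraries. None of 28 members passed (0 by limma and 0 by limma-voom), where 0.0051% of 19613 genes passed as higher and 0.0714% as lower. At an unadjusted p under 0.05 there were 7 higher and 1 lower members, where 2012 of 19613 genes were higher and 1242 lower. The difference was positive in 26 of 28 members with a median of 0.36, against 0.06 over all genes tested. For Id4 it was −0.94 ± 0.29 (SE, adjusted p = 0.164), for Dmrt1 0.52 ± 0.13 (SE, adjusted p = 0.136) and for Uchl1 0.34 ± 0.20 (SE, adjusted p = 0.425). The rise of the 14 members in spermatocytes was thus not shown to be larger than in testis.

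Between ages, 1 of 24 members had a KO effect that differed, where 0.284% of 15851 genes passed as higher and 6.3% as lower. For Dmrtb1 the effect in P18 testis minus that in P14 testis was −1.68 ± 0.31 (SE, adjusted p = 0.0132). At P14 it was at 20.3, 17.6 and 21.7 RPKM in KO and 20.99, 19.4 and 17.2 RPKM in Het, about the level of the KO libraries at P18. The difference at P14 was 0.05 ± 0.10 (SE, adjusted p = 0.918), with the groups interleaved. The call by age ended without the second P18 Het library (adjusted p = 0.0597) and with limma-voom (adjusted p = 0.0589). For Etv5, Uchl1 and Dmrt1 the differences by age were 0.23 ± 0.20, 0.18 ± 0.16 and 0.11 ± 0.12, with adjusted p of 0.553, 0.572 and 0.620.

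Within the Het libraries the members also differed between spermatocytes and testis at P18, which are in different units (RPKM and FPKM). Of 28 members, 17 were higher and 3 lower in spermatocytes, where 23.6% of 19613 genes passed as higher and 33.3% as lower. Pou3f1 was at 7.09, 8.71 and 6.09 RPKM in Het spermatocytes, against 1.84, 2.38 and 1.77 FPKM in Het testis (1.64 ± 0.14 SE, adjusted p = 2.81e-06). Kit was at 19.9, 17.6 and 16.4 RPKM, against 6.09, 8.57 and 7.11 FPKM in testis (1.26 ± 0.13 SE, adjusted p = 9.85e-06). Etv5 went the other way, at 2.26, 2.30 and 2.08 RPKM in Het spermatocytes and 7.38, 7.33 and 7.49 FPKM in Het testis (−1.54 ± 0.10 SE, adjusted p = 3.95e-07). Groups did not overlap in these 3 genes, nor in 14 other higher and 2 other lower members, against 23% and 35.1% of all genes. Differences of 1.05 to 1.36 were also called for Gfra1, Ret, Sox3, Sall4, Egr4, Sohlh1 and Epcam. Smaller rises were called for Zbtb16, Lin28a, Taf4b, Tcf3, Sohlh2, Dmrt1, Dmrtb1 and Zglp1, while Itga6 (−1.29) and Neurog3 (−0.99) were lower. Neurog3 was at 0.176 to 0.268 RPKM in Het spermatocytes, from 3 to 7 reads, and passed the filter only through testis libraries. Its call is therefore uncertain. Id4 (0.26 ± 0.20 SE, adjusted p = 0.289) and Uchl1 (0.35 ± 0.14 SE, adjusted p = 0.0592) were not called. The call of Dmrtb1 (0.85 ± 0.32 SE, adjusted p = 0.0399), whose groups overlapped, ended under 10 of 23 alternatives, among them the fit without the third Het spermatocyte library (0.475 ± 0.251, adjusted p = 0.137), and that of Lin28a under 4. The libraries labelled spermatocytes thus held transcripts of mitotic spermatogonial genes, and what other cells they held was not tested.

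With age, Dmrtb1 rose and most other members fell in Het testis. Of 24 members, 1 was higher and 13 lower at P18 than at P14, where 30% of 15851 genes passed as higher and 31.8% as lower. Dmrtb1 was at 81.3, 54.5 and 38.8 FPKM at P18, against 20.99, 19.4 and 17.2 RPKM at P14 (1.52 ± 0.22 SE, adjusted p = 0.000135). Ccnd2 was at 6.01, 7.63 and 7.28 FPKM at P18, against 14.8, 14.03 and 12.7 RPKM at P14 (−0.94 ± 0.12 SE, adjusted p = 5.02e-05). Sall4 was at 4.58, 4.72 and 5.25 FPKM at P18, against 8.68, 9.57 and 8.16 RPKM at P14 (−0.80 ± 0.09 SE, adjusted p = 2.64e-05). Neither age overlapped the other in these 3 genes. Among the 24 members this held for 2 higher and 13 lower, against 32.4% and 34.5% of all genes. The further falls ran from −0.86 for Lin28a to −0.33 for Taf4b and included Gfra1, Ret, Zbtb16, Foxo1, Upp1, Sohlh1, Kit, Dmrt1 and Zglp1. Etv5 (−0.09 ± 0.14 SE, adjusted p = 0.581) and Uchl1 (−0.19 ± 0.12 SE, adjusted p = 0.170) were not called. Age and the way the values were made (RPKM at P14, FPKM at P18) cannot be told apart here.

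**Figure D4:**
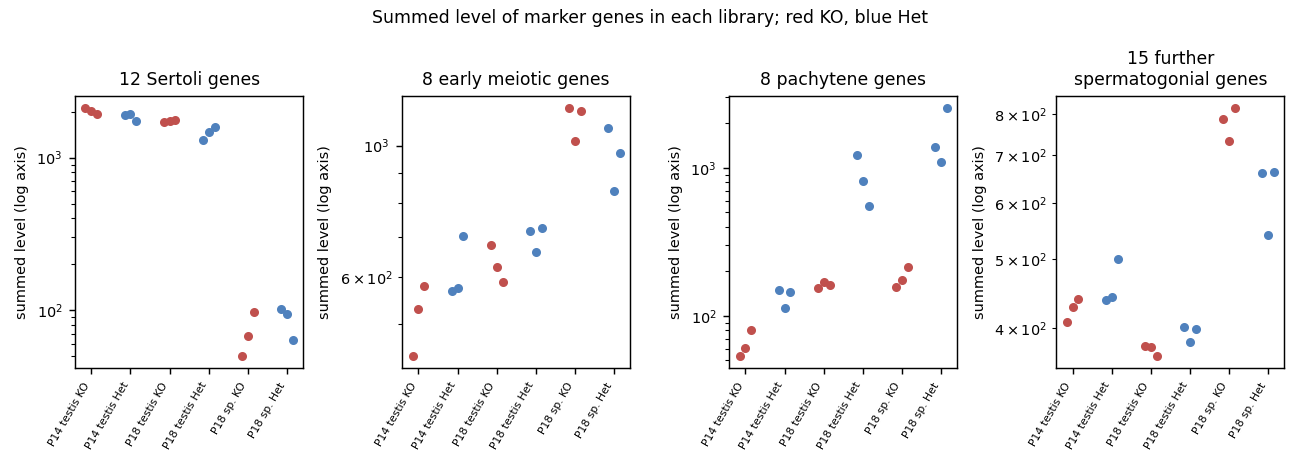
Summed level per library, on a log axis, of 12 Sertoli, 8 early meiotic, 8 pachytene and 15 further spermatogonial genes in the 6 groups, KO left of Het. The pachytene sum is 153.7 to 169.6 in KO and 548.8 to 1217 in Het P18 testis, while Sertoli sums in spermatocytes lie at 50.5 to 101.5 in both genotypes.

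Other genes of the pathway were read from lists that hold none of the 34 members. Of 18 niche ligands and receptors, 0 of 13 tested passed at P14 with limma (0 also at an unadjusted p under 0.05), 3 of 11 rose in P18 testis (5.42% of all genes tested) and 1 of 8 in spermatocytes (16.3% of all genes tested). In P18 testis these were Kitl, the ligand of KIT (0.26 ± 0.07, adjusted p = 0.0344), Csf1 (0.42 ± 0.11, adjusted p = 0.0445) and Cxcl12 (0.47 ± 0.13, adjusted p = 0.0486). In spermatocytes it was the receptor gene Fgfr1 (0.49 ± 0.15, adjusted p = 0.042). Gdnf was at 1.25 to 1.74 FPKM in KO and 1.15 to 1.29 FPKM in Het P18 testis (0.19 ± 0.15, adjusted p = 0.397).

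Of 15 further spermatogonial genes, 0 of 10 tested passed at P14 with limma (3 higher and 1 lower at an unadjusted p under 0.05), 4 rose and 1 fell of 10 in P18 testis, and 7 rose of 12 in spermatocytes. The shares of all genes tested were 5.42% higher and 17.8% lower in P18 testis and 16.3% higher in spermatocytes. At P14 708 of 18104 genes were higher and 988 lower at an unadjusted p under 0.05. Stra8, the retinoic-acid target of meiotic entry that is also on the early meiotic list, was at 102.5 to 109.6 RPKM in KO and 56.4 to 78.9 RPKM in Het spermatocytes (0.68 ± 0.14, adjusted p = 0.0102). Rhox13, Ddit4 and Elavl2 rose with Stra8 in both P18 sets, and Rarg (a retinoic acid receptor), Dnmt3b (a DNA methyltransferase) and Dazl (an RNA-binding protein) rose in spermatocytes. Ddx4, the germ-cell RNA helicase of the VASA family, fell in P18 testis to 74.4 to 80.5 FPKM in KO, against 118.7 to 157.7 FPKM in Het (−0.77 ± 0.11, adjusted p = 0.00824). Over the 18 libraries the closest patterns to called members among 8164 genes were those of Caprin2 to Taf4b (Pearson r = 0.994), Clspn to Kit (0.992) and Trim71 to Sall4 (0.991), over libraries that share the contrast between spermatocytes and testis.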

How the data were processed

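Poly(A) RNA of 18 libraries, 3 in each of 6 groups, was measured by sequencing. Per the labels, RNA was extracted with Trizol and libraries were made with NEBNext kits. Build GRCm38 and the tools STAR 2.6.1a, edgeR 3.28.1, CASAVA 1.9 and featureCounts are named by the submitters' processing notes without roles. Strand setting and annotation are not given in the sources used here. Per library 1 table of gene symbols and values was deposited by the authors, as FPKM for P18 testis and as RPKM for the other 2 sets. Depth was read back from the values: multiplied by merged exon length, 92.9% to 99.2% of low values (up to 30 reads) were within 0.01 of whole reads. Rows with a shared symbol (190 at P14, 217 at P18) were left out, and no 2 libraries held the same values.

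A trimmed mean of M values (trims of 30% for M and 5% for mean level) gave 1 scaling factor for each of the 18 libraries in R 4.3.3. Deposited values were read, and reads read back, with Python 3.11.15, numpy 2.4.6 and pandas 2.3.3. Figures used matplotlib 3.10.9. Genes that reached 1 in at least 3 libraries of a fit were tested on log2(value + 0.5) with limma 3.58.1 in R 4.3.3 (intensity trend, robust moderation, two-sided, Benjamini-Hochberg over all genes tested, threshold 0.05). Fold changes are on this scale, which understates the change of low genes. Each comparison of KO with Het had a fit of its own 6 libraries, and the other 4 comparisons used fits of 12. When the fit was tested on simulated data, the share of false calls lay above the threshold, so calls close to it are less sure. The 34 members, the classes and the lists were chosen with earlier results of these data known. Full statistics are given for members past the threshold and for up to 3 further members a comparison, the most abundant of a class. Same-numbered KO and Het spermatocyte libraries deviated together (r = 0.375, 0.129 and 0.2 over 9089 genes). The highest value between differently numbered libraries was 0.017. The numbers, taken from the titles, may thus pair those libraries, but 3 libraries a group cannot establish this. In P14 testis these correlations were weaker (0.161, 0.086 and 0.117) but also above those between differently numbered libraries (at most 0.08). Printed values of both sets are nevertheless from fits without the replicate block unless the block is named.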

Additional observations from a re-analysis of the deposited data

Results flagged for a closer look

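The effect of KO on Dmrtb1, the DMRT6 gene, differed between ages by a test of the difference itself, P18 testis minus P14 testis, with a log2 value of −1.68 ± 0.31 (SE, adjusted p = 0.0132, limma interaction term). In KO testis its level was 15.7, 19.7 and 17.5 FPKM at P18 and 20.3, 17.6 and 21.7 RPKM at P14. In Het testis it was 81.3, 54.5 and 38.8 FPKM at P18 and 21.0, 19.4 and 17.2 RPKM at P14. The 6 KO libraries thus lay in 1 narrow range at both ages, and Het libraries were above it at P18 in 3 of 3. The sum of 8 pachytene markers moved in the same libraries, at 153.7 to 169.6 in KO and 548.8 to 1217 in Het at P18, and 53.8 to 79.7 in KO and 112.1 to 150.5 in Het at P14. Its part in the result was not tested. Age cannot be told apart from the way the values of each age were made (49585 rows at P14 and 55401 at P18, in different units).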

How the results depend on the processing

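In P18 testis 8 members were called in the main analysis, and the count was 4 without a filter, 14 on values as deposited, 14 with median-of-ratios scaling, 5 with 1 fit over all 18 libraries, 14 with limma-voom on reads read back, and 1 to 9 when 1 library was left out. In spermatocytes, 15 members, it was 12 without a filter (11 shared; Epcam, Lin28a, Sall4 and Taf4b lost their calls, adjusted p = 0.0589 to 0.0963) and 9 to 15 when 1 library was left out. For the difference of the KO effect between spermatocytes and testis, 0 members, it was 1 on values as deposited (Id4, adjusted p = 0.0488), 1 with 1 fit over all 18 libraries (Dmrt1, adjusted p = 0.0371) and 0 when any 1 library was left out. For the difference between ages, 1 member, it was 2 with median-of-ratios scaling, 0 with limma-voom and 0 to 2 when 1 library was left out. The cause of these changes was not tested, apart from the smaller number of libraries. Shares of all genes called under each alternative are not given, so these counts cannot be read as particular to the members. The reversed value was that of Etv5 between ages in Het (−0.09 in the main analysis, never called), at 0.083 on values as deposited and at −0.243 to 0.001 when 1 library was left out (0.001 without the second P14 Het library).

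With the replicate block the count was 0 at P14, 6 in P18 testis, 16 in spermatocytes (Id4 −1.70 ± 0.135, adjusted p = 0.000406), 0 and 1 for the differences by fraction and by age, 19 for spermatocytes against testis and 14 for P18 against P14. Same-numbered libraries correlated at 0.161, 0.086 and 0.117 in P14 testis, each above the highest value between differently numbered libraries (0.08). A weak pairing by number is thus possible at P14, which the printed P14 values leave out. In P18 testis they correlated at −0.003, 0.007 and −0.005. Those values lay within the range of differently numbered libraries (−0.079 to 0.081), so the number was not read as a pairing in P18 testis. Scaling moved the median of all genes: in P18 testis it was 0.01 as main, 0.12 as deposited and 0.11 with median-of-ratios scaling, and in spermatocytes 0.07, 0.17 and 0.09. Chosen after seeing the data were scaling factors from the libraries of each fit (9 members in P18 testis, 11 in spermatocytes) and moderation without the robust option (8 and 15). Of the values over all alternatives of single named genes (called members and up to 3 others a comparison), 1374 kept their direction and side of the threshold, 90 lost and 23 gained a call, and 2 reversed; Zbtb16 in spermatocytes, which gained a call with the replicate block, is outside these totals. Depth limits Nanos2, Lhx1, Eomes and Cdh1, which stayed under 1.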
